A study of Mus musculus with 9 samples.

Results

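The T-cell receptor (TCR) recognises peptides on MHC molecules, but its antigen-binding chains cannot signal on their own. They are carried to the cell surface with the CD3 chains and the zeta chain, whose tails are phosphorylated by the kinase Lck and then bound by the kinase Zap70. The coreceptors decide which MHC class is read: CD8, a pair of chains encoded by *Cd8a* and *Cd8b1*, binds MHC class I and marks cytotoxic T cells, and CD4 binds MHC class II and marks helper and regulatory T cells. In a transplanted lung these cells enter from the recipient and surround the airways during rejection, and obliterative bronchiolitis (OB) is the scarring of small airways that follows.

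The genes described here are *Cd3d*, *Cd3e*, *Cd3g*, *Cd247* (the zeta chain), *Cd8a*, *Cd8b1*, *Cd4*, *Lck* and *Zap70*. They were chosen by name, 9 genes with every non-control probe whose accession belongs to one of them, which gave 17 of the 56601 probes tested and 9 of the 22909 genes that could be named. A further *Cd4* probe (A_51_P236573), named only in a table that accompanies the study, is given beside them. Every gene was well above background on all 9 arrays by its brightest probe, which is the probe with the highest mean log2 signal, and a gene is given by that probe unless another is named.

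Left lungs were collected 21 days after surgery from 3 mice with OB grafts, 3 with non-OB grafts and 3 sham-operated mice, 1 array for each mouse. The study states that each lung was divided, with 1 part used for histology and the other for RNA. The diagnosis and the RNA therefore come from different parts of a lung. The grafts came from C57BL/10 donors and were placed in C57BL/6 recipients, males of 8 to 12 weeks that share their MHC haplotype and differ in minor antigens. OB and non-OB name the histology found at harvest after the same operation, so that these groups were sorted by outcome and not by treatment. The sham mice had a thoracotomy and no graft. The labels give the same donor and recipient strain to the sham mice as to the grafts, whereas the study states that both strains served as sham and names sham 1 as C57BL/10 and sham 2 and sham 3 as C57BL/6. RNA of a graft mixes donor and recipient cells, and in whole tissue a lower level may mean fewer cells of a type or less RNA in each cell, which cannot be told apart.

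The signal is the intensity of Agilent 1-colour arrays on the log2 scale, scaled to the same trimmed mean on each array, so that a difference of 1 is a doubling. Between 58.6% and 69.6% of the spots of an array were well above background and none was saturated. Of the 4 slides used, slide 1 carried both OB 1 and non-OB 1 together with sham 1 and sham 2. OB 2 shared slide 2 with non-OB 3, OB 3 shared slide 3 with non-OB 2, and sham 3 was alone on slide 4. Each slide was scanned on a day of its own, so that slide and scan day cannot be told apart. Changes were tested with limma. Called probes, also termed upregulated where they were higher, had an adjusted p below 0.05 after Benjamini-Hochberg adjustment over all probes and, against sham, changed at least 2-fold. Each array held RNA of an individual mouse, and the p-values measure the spread between these mice, whose litters are not given in the sources used here. The comparisons against sham share the 3 sham arrays and are not independent of each other.

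Compared to the sham group, 8 of the 9 genes were upregulated in the OB grafts. Of all probes, 2.72% were called higher in that comparison. In the non-OB grafts 4 of the 9 were upregulated, *Cd3d*, *Cd3e*, *Cd3g* and *Zap70*, against 1.81% of all probes. Between OB and non-OB none of the 9 was called, and limma called no probe on the array as higher (0.00%), the smallest adjusted p of the 9 genes being 1. The median log2 change of the 9 genes was 2.06 in OB against sham, 1.65 in non-OB against sham and 0.41 in OB against non-OB, beside 0.08, 0.13 and -0.05 over all probes. Taken as 6 allografts against 3 sham lungs, 7 genes were upregulated, *Cd247* and *Cd8b1* being the exceptions, against 3.27% of all probes. With 1 array left out, 5 (without OB 3) to 7 genes were upregulated in OB and 0 (without non-OB 1) to 4 in non-OB, and without sham 1, which read lowest of the sham lungs for most of these genes, 6 and 2 were. Counted by probe, 14 of 17 were called higher in OB, 8 of 17 in non-OB and 15 of 17 in the allografts together.

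The arrays of a graft group lay entirely above the sham arrays for 8 of the 9 genes in OB and for the same 8 in non-OB, *Cd247* being left out. Such a separation was found in 20.0% of all probes for OB and in 16.3% for non-OB. For the opposite separation, arrays entirely below sham, no share of all probes is given, also where it is named for single genes further on. All 3 OB arrays lay above all 3 non-OB arrays for *Cd3e*, *Cd3g*, *Cd8a* and *Cd8b1*, against 1.09% of all probes. At an unadjusted p under 0.05, 307 probes (0.542%) were higher in OB than in non-OB. Of the 17 probes of the 9 genes 4 were among them, both of *Cd8a*, that of *Cd8b1* and the dimmer of *Cd3e* (log2 difference 0.60, SE 0.22, unadjusted p = 0.0248).

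**Figure D1:**
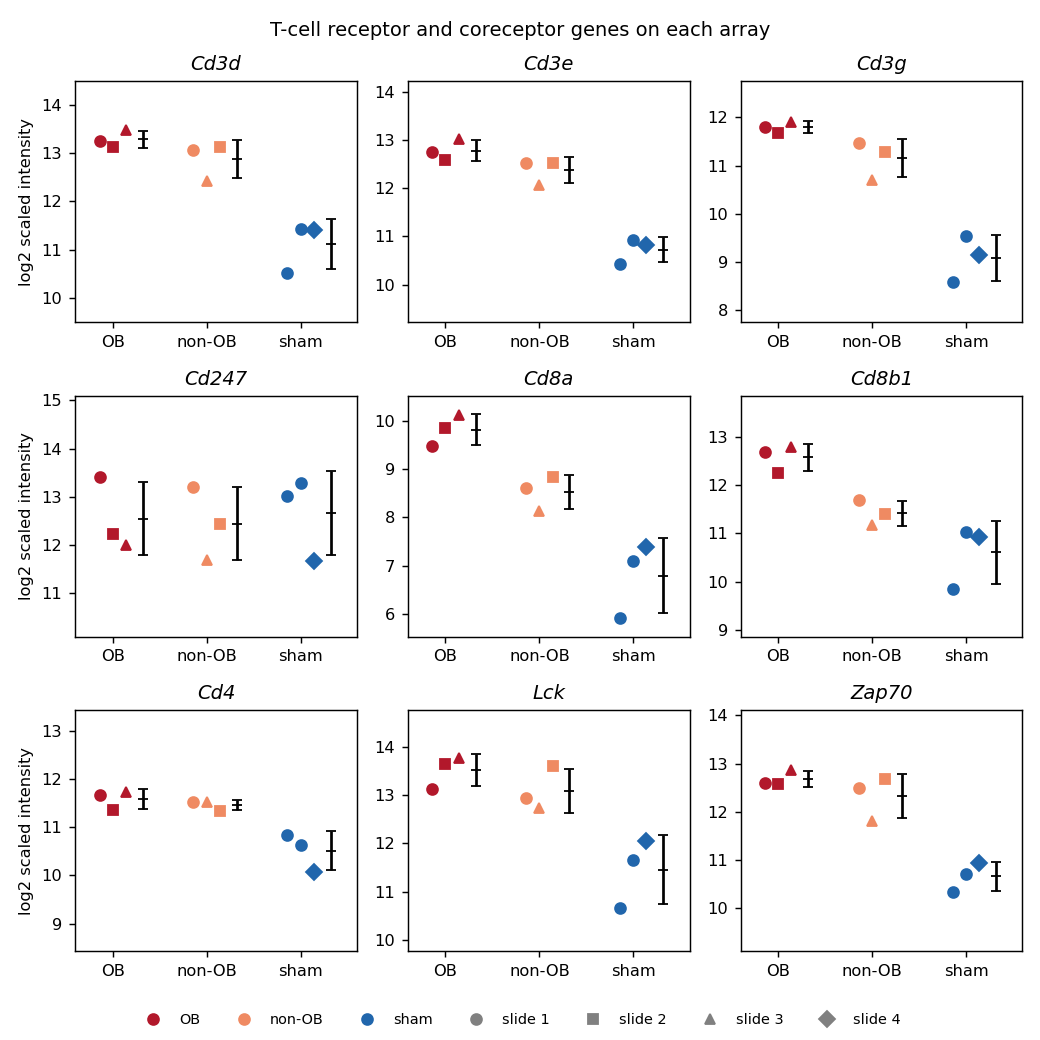
Log2 scaled intensity (vertical axis, each panel spanning 5 log2 units) of the 9 genes by their brightest probe on each of the 9 arrays. Colours give the group, marker shapes the slide, and the black bars the mean ± SD of the 3 arrays of a group; the grafts lie above all sham lungs in every panel but *Cd247*, and OB lies clear above non-OB in *Cd8a* and *Cd8b1*.

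The CD3 chains rose in both kinds of graft. *Cd3e* encodes the epsilon chain, which pairs with each of the other CD3 chains. It read 12.74, 12.59 and 13.01 in OB, 12.52, 12.06 and 12.53 in non-OB and 10.43, 10.92 and 10.82 in sham. Each graft was above each sham lung, and the lowest OB array lay just above the highest non-OB array. The log2 change was 2.06 (SE 0.23, adjusted p = 0.0034 from limma) in OB, a 4.16-fold rise, and 1.65 (SE 0.23, adjusted p = 0.0122) in non-OB, a 3.13-fold rise. The log2 difference between OB and non-OB was 0.41 (SE 0.23).

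*Cd3d* encodes the delta chain. Its values were 13.25, 13.13 and 13.48 in OB, 13.07, 12.43 and 13.14 in non-OB and 10.51, 11.43 and 11.40 in sham. The graft groups overlapped here, with non-OB 2 standing below the other grafts and sham 1 below the other sham lungs. Against sham it changed by 2.17 on the log2 scale (SE 0.31, adjusted p = 0.0080) in OB and 1.76 (SE 0.31, adjusted p = 0.0282) in non-OB. The call in non-OB was lost when any of 6 arrays was left out in turn, with adjusted p-values of 0.0507 without OB 3, 0.081 without non-OB 1, 0.0846 without non-OB 3, 0.0664 without sham 1, 0.0791 without sham 2 and 0.0646 without sham 3.

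*Cd3g*, the gamma chain, showed the largest change of the CD3 genes against sham. Its values were 11.81, 11.68 and 11.91 in OB, 11.47, 10.71 and 11.29 in non-OB and 8.59, 9.55 and 9.14 in sham. All 3 groups stood apart, with OB highest and sham lowest. On the log2 scale it changed by 2.71 (SE 0.29, adjusted p = 0.0033), 6.53-fold, in OB and 2.06 (SE 0.29, adjusted p = 0.0136), 4.18-fold, in non-OB. In non-OB the call was lost without non-OB 1 (adjusted p = 0.0564) and without sham 3 (adjusted p = 0.0508), and that of *Cd3e* without non-OB 1 (adjusted p = 0.0517) and without sham 2 (adjusted p = 0.0504). The other probes of *Cd3d* and *Cd3e* were called in both comparisons, with log2 changes of 2.27 and 2.01 in OB and 1.83 and 1.41 in non-OB.

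The 250 bases before the start of the 3 CD3 genes are shown because these genes moved together and lie side by side. *Cd3g* and *Cd3d* are transcribed away from each other, with 1355 bases between their starts. The sequences are those of RefSeq for GRCm38.p6, 5′ to 3′ on the strand of the gene, with the letters of a searched motif, read on either strand, in capitals.
Cd3d, chr9:44981536-44981785, + strand: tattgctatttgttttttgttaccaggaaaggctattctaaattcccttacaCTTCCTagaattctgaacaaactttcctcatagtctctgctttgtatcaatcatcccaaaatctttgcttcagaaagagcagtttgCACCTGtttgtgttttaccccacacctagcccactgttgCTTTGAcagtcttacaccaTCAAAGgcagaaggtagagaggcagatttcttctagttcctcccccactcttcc
Cd3g, chr9:44980432-44980681, - strand: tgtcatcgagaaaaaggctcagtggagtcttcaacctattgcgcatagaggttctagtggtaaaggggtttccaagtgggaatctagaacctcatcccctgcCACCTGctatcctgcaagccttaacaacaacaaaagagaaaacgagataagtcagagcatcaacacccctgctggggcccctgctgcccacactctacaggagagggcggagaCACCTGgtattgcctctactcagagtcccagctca
Cd3e, chr9:45009612-45009861, - strand: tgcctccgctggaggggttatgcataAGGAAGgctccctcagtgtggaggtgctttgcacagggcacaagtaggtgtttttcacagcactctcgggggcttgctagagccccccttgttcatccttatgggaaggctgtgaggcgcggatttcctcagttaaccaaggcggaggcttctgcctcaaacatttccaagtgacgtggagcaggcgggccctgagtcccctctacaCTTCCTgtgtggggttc

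The motifs searched were AGGAAG for ETS factors, CTTTGA for TCF and LEF factors, TGTGGT for RUNX factors and CAGGTG and CAGCTG for E-box factors, all of them families with members that act in T cells. Of the 32851 windows of this length, 29.5% held AGGAAG, 17.2% CAGGTG and 13.8% CTTTGA on at least 1 strand, and 4614 windows held TGTGGT and 4271 CAGCTG. The *Cd3d* window held 1 AGGAAG, 1 CAGGTG and 2 CTTTGA, that of *Cd3g* 2 CAGGTG, and that of *Cd3e* 2 AGGAAG. None of the matches overlapped another. They are matches of letters in common motifs and are given as a description of these windows. Of the 9 genes, 7 had a window in the table, and *Cd8b1* and *Cd4* had no entry.

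The zeta chain gene *Cd247* was the exception, and its probes did not behave alike. The brightest probe (A_55_P2487460, designed on the transcript NM_001113391) read 13.42, 12.22 and 12.01 in OB, 13.20, 11.70 and 12.43 in non-OB and 13.02, 13.30 and 11.66 in sham. The groups overlapped fully, and the arrays fell by slide instead: the 4 arrays of slide 1 lay between 13.02 and 13.42 and the other 5 between 11.66 and 12.43. Its log2 change was -0.11 (SE 0.58, adjusted p = 0.927) in OB and -0.22 (SE 0.58, adjusted p = 0.856) in non-OB. On slide 1 alone OB was 0.26 above the mean of the sham lungs.

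The other *Cd247* probes were far dimmer and were higher in the grafts. The probe for NM_031162 read 6.55, 7.19 and 7.43 in OB, 6.67, 6.34 and 6.83 in non-OB and 5.23, 5.92 and 6.09 in sham. Every graft exceeded every sham lung, with a log2 change of 1.31 (SE 0.32, adjusted p = 0.0512) in OB and 0.87 (SE 0.32, adjusted p = 0.221) in non-OB. The probe for NM_001113393 read 5.61, 5.83 and 5.94 in OB, 6.06, 5.55 and 5.95 in non-OB and 3.72, 3.76 and 5.16 in sham, where only 1 of 3 arrays was well above background. Neither passed the threshold against sham in the separate graft groups, and both were called in the 6 allografts together, with log2 changes of 1.09 (SE 0.29, adjusted p = 0.0486) and 1.61 (SE 0.31, adjusted p = 0.0157).

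The kinases followed the CD3 genes. *Lck*, the kinase that phosphorylates the CD3 and zeta chains and is held by the tails of CD4 and CD8, read 13.13, 13.65 and 13.77 in OB, 12.94, 12.72 and 13.60 in non-OB and 10.67, 11.64 and 12.05 in sham. The grafts lay above all sham lungs and the graft groups overlapped. The log2 change was 2.06 (SE 0.40, adjusted p = 0.0238) in OB and 1.64 (SE 0.40, adjusted p = 0.0806) in non-OB, the latter above the threshold. The call in OB was lost without OB 2 (adjusted p = 0.0785), OB 3 (adjusted p = 0.0854), sham 1 (adjusted p = 0.0575) or sham 2 (adjusted p = 0.0748).

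*Zap70* encodes the kinase that docks on the phosphorylated chains and passes the signal to the adaptor Lat. Its values were 12.59, 12.58 and 12.87 in OB, 12.49, 11.82 and 12.69 in non-OB and 10.35, 10.71 and 10.94 in sham. Apart from non-OB 2, the 6 grafts lay within a narrow band far above sham. The log2 change was 2.01 (SE 0.27, adjusted p = 0.0067), 4.04-fold, in OB and 1.67 (SE 0.27, adjusted p = 0.0221), 3.18-fold, in non-OB. The non-OB call was lost without non-OB 1 (adjusted p = 0.0757), non-OB 3 (adjusted p = 0.066), sham 1 (adjusted p = 0.0817), sham 2 (adjusted p = 0.095) or sham 3 (adjusted p = 0.0516). The second probes of *Lck* and *Zap70* gave log2 changes of 1.99 and 2.05 in OB.

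Within an array the distance of each kinase from *Cd3e* changed by less than its SE. The log2 change of *Zap70* minus that of *Cd3e* was -0.04 (SE 0.11) in OB against sham, 0.02 (SE 0.15) in non-OB against sham and -0.06 (SE 0.12) in OB against non-OB. For *Lck* these differences were 0.00 (SE 0.35), -0.01 (SE 0.34) and 0.01 (SE 0.27). *Zap70* and *Lck* are also used by natural killer cells. Of 8 natural killer cell genes, 1 was called higher in OB, *Klri2*, beside 2.72% of all probes. It was at least 3.29-fold higher there and was well above background in none of the sham lungs. In non-OB it was called as well, at least 3.11-fold higher. *Klrb1b* and *Klrb1f* changed by 1.26 (SE 0.30) and 1.365 (SE 0.34) in OB and by 1.31 (SE 0.30) and 1.17 (SE 0.34) in non-OB. Both were called only in the 6 allografts together. Of the 8 genes, 4 had a higher mean in OB than in sham and the others a lower one. The median log2 change of the 8 in OB was -0.11. The summed intensity of the 8 genes lay between 2434 and 2451 in OB, 2277 and 3140 in non-OB and 2578 and 3527 in sham, so that every OB lung lay below every sham lung. Without *Klra8*, the brightest of the 8, the sums overlapped, at 1706 to 1824 in OB and 1668 to 2228 in sham.

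**Figure D2:**
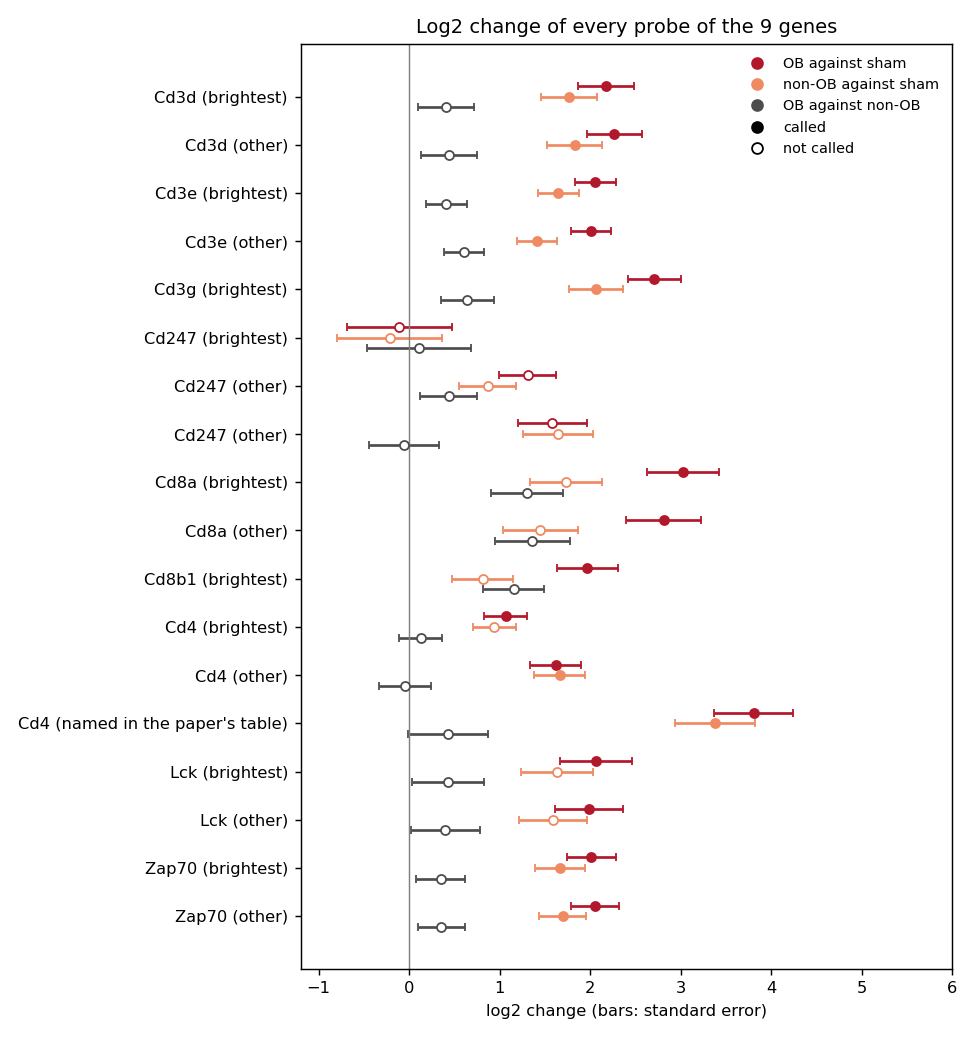
Log2 change (horizontal axis, bars ± SE from limma) of all 17 probes of the 9 genes and of the *Cd4* probe named in the study's table, for OB against sham (red), non-OB against sham (orange) and OB against non-OB (grey), filled where called. The OB against non-OB values lie between -0.06 and 0.64 except at the *Cd8a* and *Cd8b1* probes, which lie between 1.16 and 1.36, and the change of the *Cd4* probe of the study's table is a fitted value, since none of its sham arrays was well above background.

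Of the coreceptors, the CD8 genes had the widest gap between OB and non-OB. *Cd8a*, the alpha chain, read 9.48, 9.86 and 10.12 in OB, 8.60, 8.14 and 8.83 in non-OB and 5.91, 7.09 and 7.38 in sham. The 3 groups formed separate steps, with OB above non-OB and non-OB above sham. The log2 change against sham was 3.03 (SE 0.40, adjusted p = 0.0061), 8.17-fold and the largest of the 9 genes, in OB, and 1.73 (SE 0.40, adjusted p = 0.0685) in non-OB. The log2 difference between OB and non-OB was 1.30 (SE 0.40, unadjusted p = 0.0112, adjusted p = 1 from limma), or 2.46-fold, with 3 of 3 OB arrays above every non-OB array.

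The second *Cd8a* probe had the same order of groups. It read 8.53, 7.88 and 8.69 in OB, 7.45, 6.65 and 6.92 in non-OB and 4.76, 5.64 and 6.27 in sham. Its log2 changes were 2.81 (SE 0.42, adjusted p = 0.0092) in OB and 1.45 (SE 0.42, adjusted p = 0.129) in non-OB, and the log2 difference between the graft groups was 1.36 (SE 0.42, unadjusted p = 0.0112, adjusted p = 1).

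*Cd8b1* encodes the beta chain, which with the alpha chain forms the coreceptor of conventional cytotoxic T cells. It read 12.69, 12.26 and 12.79 in OB, 11.69, 11.18 and 11.40 in non-OB and 9.86, 11.04 and 10.93 in sham. OB stood clear of both other groups, while the lowest non-OB array was only a little above the highest sham array. Against sham the log2 change was 1.97 (SE 0.34, adjusted p = 0.0156), 3.91-fold, in OB and 0.81 (SE 0.34, adjusted p = 0.274) in non-OB. Between OB and non-OB the log2 difference was 1.16 (SE 0.34, unadjusted p = 0.0090, adjusted p = 1), 2.23-fold. Without OB 3 the call against sham was lost (log2 change 1.86, adjusted p = 0.0622).

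*Cd8a* is carried by some type 1 conventional dendritic cells, not by all of them, as well as by T cells, whereas these dendritic cells lack the beta chain. Of 8 genes of these dendritic cells 6 were called higher in OB, beside 2.72% of all probes. They were *Xcr1*, at least 7.08-fold higher, *Flt3* (log2 change 3.03, SE 0.23) and *Batf3* (2.72, SE 0.31), with *Clec9a*, *Irf8* and *Wdfy4*. The other members were *Cadm1*, an adhesion molecule, which went the opposite way with every graft below every sham lung (log2 change -0.93, SE 0.19, adjusted p = 0.0287, in OB and -0.80, SE 0.19, adjusted p = 0.0739, in non-OB) but by less than 2-fold, and *Tlr3*, at -0.14 (SE 0.28) in OB. The summed intensity of the 8 genes lay between 32705 and 46597 in OB, 33354 and 36842 in non-OB and 18036 and 23116 in sham. None of the 8 was without signal on every array, and the part of these cells in the *Cd8a* level was not tested. *Cd8a* exceeded *Cd8b1* in its log2 change by 1.06 (SE 0.27) in OB against sham and by 0.92 (SE 0.21) in non-OB against sham, but by 0.14 (SE 0.29) in OB against non-OB.

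The window before the start of *Cd8a* is shown as the counterpart of the CD3 windows, from the same RefSeq table. It held none of the 5 motifs, and so no capitals.
Cd8a, chr6:71373177-71373426, + strand: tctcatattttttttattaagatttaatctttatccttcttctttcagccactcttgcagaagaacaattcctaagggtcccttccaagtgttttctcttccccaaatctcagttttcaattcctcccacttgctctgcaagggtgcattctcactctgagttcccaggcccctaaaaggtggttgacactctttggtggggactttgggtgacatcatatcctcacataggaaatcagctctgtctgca

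*Cd4* had the smallest change of the 8 genes upregulated in OB, and its OB and non-OB values overlapped. Its brightest probe read 11.67, 11.35 and 11.73 in OB, 11.52, 11.52 and 11.33 in non-OB and 10.84, 10.64 and 10.06 in sham. Both graft groups lay above sham, and sham 1, the lowest sham lung for the other called genes, was the highest here. The log2 change was 1.07 (SE 0.24, adjusted p = 0.0394), 2.10-fold, in OB and 0.94 (SE 0.24, adjusted p = 0.091), 1.92-fold, in non-OB, and the log2 difference between OB and non-OB was 0.13 (SE 0.24). The OB call was close to the threshold: it was lost when any 1 of the 9 arrays was left out, with adjusted p-values from 0.0548 without non-OB 3 to 0.133 without OB 3.

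The other *Cd4* probes gave larger changes against sham. The dimmer RefSeq probe read 5.21, 6.11 and 6.07 in OB, 5.93, 5.56 and 6.03 in non-OB and 4.23, 3.95 and 4.35 in sham, with 1 of 3 sham arrays well above background. Its log2 change was 1.62 (SE 0.28, adjusted p = 0.0165) in OB and 1.66 (SE 0.28, adjusted p = 0.0251) in non-OB. The probe of the study's table read 6.02, 6.37 and 6.51 in OB and 6.00, 5.22 and 6.40 in non-OB and was well above background in none of the sham lungs, so that only bounds can be given. The OB level was at least 4.76-fold higher (adjusted p = 0.0040) and the non-OB level at least 3.54-fold higher (adjusted p = 0.0100) than that of sham. The 3 probes therefore disagree on the size of the rise over sham. In OB against non-OB they gave 0.13, -0.05 and 0.43, and the groups overlapped in each.

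To set CD8 against CD4, the log2 value of *Cd4* was subtracted from that of each CD8 gene on the same array, and the groups were compared by exact two-sided permutation tests, 8 in all. The difference of these values between groups is the difference of the log2 changes. *Cd8a* minus *Cd4* was -2.18, -1.49 and -1.61 in OB, -2.92, -3.38 and -2.50 in non-OB and -4.94, -3.55 and -2.68 in sham. OB was highest without overlap, and non-OB overlapped sham. *Cd8a* exceeded *Cd4* in its log2 change by 1.96 (SE 0.69, exact p = 0.1, adjusted p = 0.16) in OB against sham, by 0.79 (SE 0.71, exact p = 0.4, adjusted p = 0.533) in non-OB against sham and by 1.17 (SE 0.33, exact p = 0.1, adjusted p = 0.16) in OB against non-OB.

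*Cd8b1* minus *Cd4* was 1.02, 0.91 and 1.06 in OB, 0.17, -0.34 and 0.07 in non-OB and -0.99, 0.40 and 0.87 in sham. The OB arrays differed little among themselves and lay above all others. The excess of *Cd8b1* over *Cd4* was 0.90 (SE 0.56, exact p = 0.1, adjusted p = 0.16) in OB against sham, -0.13 (SE 0.58, exact p = 0.8, adjusted p = 0.8) in non-OB against sham and 1.03 (SE 0.16, exact p = 0.1, adjusted p = 0.16) in OB against non-OB. With 3 arrays against 3 the smallest exact p is 0.1, so these tests could not pass 0.05. In the 6 allografts against sham the excess was 1.38 (SE 0.72, exact p = 0.0952, adjusted p = 0.16) for *Cd8a* and 0.39 (SE 0.61, exact p = 0.524, adjusted p = 0.599) for *Cd8b1*, where 0.0238 is the smallest exact p and 0.0952 the smallest that the adjustment over 8 tests allows.

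**Figure D3:**
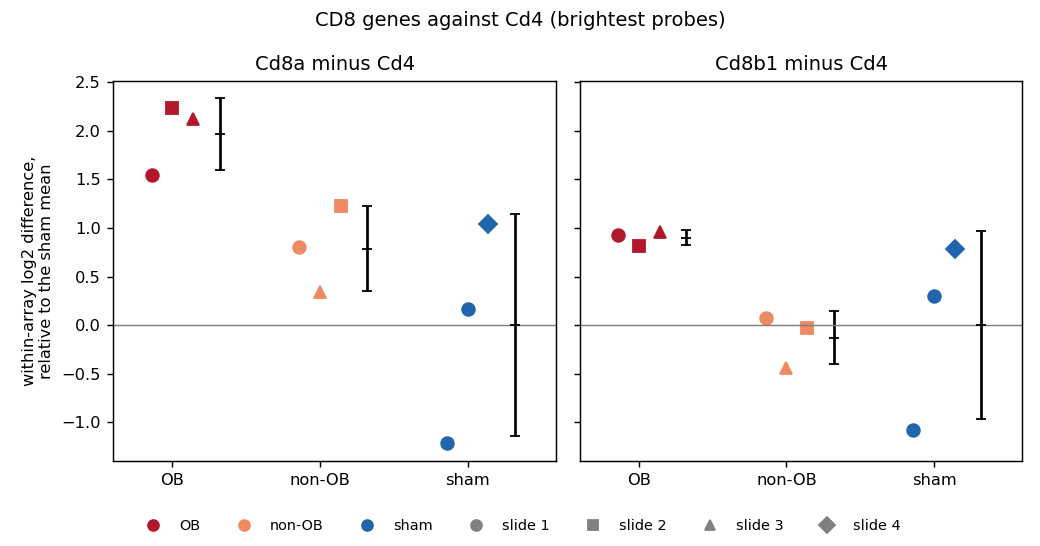
Within-array log2 difference of *Cd8a* (left) and *Cd8b1* (right) from *Cd4*, brightest probes, less the mean of the sham arrays. Points are arrays, coloured by group and shaped by slide, with mean ± SD of the 3 arrays; all OB points lie above all non-OB points, and the sham points spread more widely than those of either graft group (SD 1.14 and 0.97 in sham, 0.37 and 0.08 in OB).

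The contrast of OB with non-OB kept its direction whichever probes were paired. Over the 9 pairs of 3 CD8 probes with 3 *Cd4* probes it was positive in 9 of 9, between 0.73 and 1.41, and the groups did not overlap in 8 of 9. The pairs share their probes and the same arrays, so they are not independent of each other. Against sham only the 6 pairs with the RefSeq probes of *Cd4* gave a value. In OB the excess was positive in 6 of 6, between 0.35 and 1.96, and in non-OB in 3 of 6, between -0.85 and 0.79. With the *Cd4* probe of the study's table, which was not well above background in sham, the rise of *Cd4* is a lower bound and the excess an upper bound. In OB it was at most 0.78 and 0.56 for the *Cd8a* probes, which leaves its sign unsettled, and at most -0.28 for *Cd8b1*, a sign opposite to that with the other *Cd4* probes. In non-OB these bounds were -0.09 and -0.37 for *Cd8a* and -1.01 for *Cd8b1*.

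Slides 1, 2 and 3 each carried 1 OB and 1 non-OB graft, so the graft groups could be compared on the same slide. *Cd8a* was higher in OB by 0.89 on slide 1, 1.03 on slide 2 and 1.99 on slide 3, and *Cd8b1* by 1.00, 0.86 and 1.61. *Cd4* differed by 0.15, 0.02 and 0.21 on the same slides. *Cd3e* differed by 0.22, 0.06 and 0.95 and *Zap70* by 0.10, -0.11 and 1.05, so that slide 3, which held non-OB 2, gave most of their mean difference. Non-OB 2 was the lowest of the 6 grafts for *Cd3d*, *Cd3e*, *Cd3g*, *Cd247*, *Cd8a*, *Cd8b1*, *Lck* and *Zap70* but not for *Cd4*. Without non-OB 2 the excess over *Cd4* in OB against non-OB was 0.95 for *Cd8a* and 0.87 for *Cd8b1*.

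**Figure D4:**
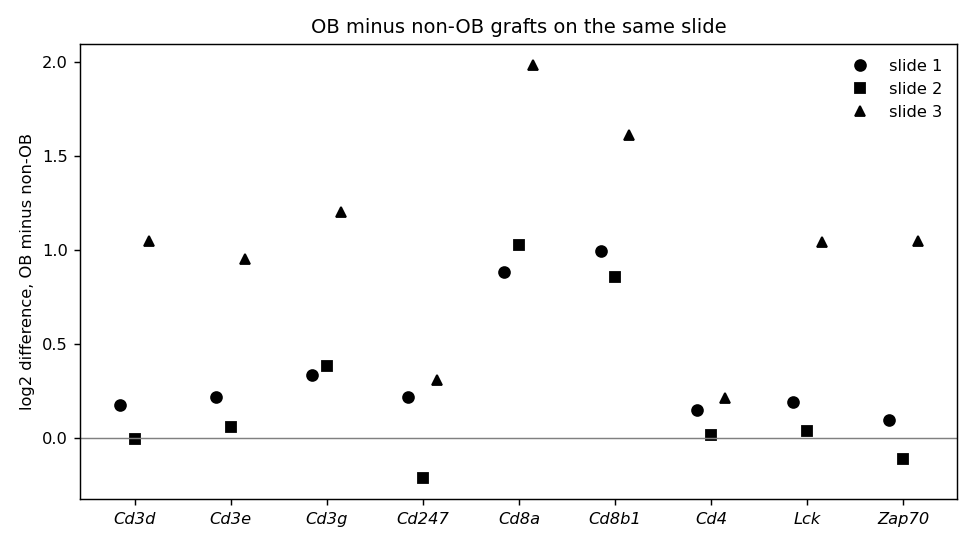
Log2 difference (vertical axis), OB array minus non-OB array on the same slide, for the 9 genes by their brightest probe; each point is 1 pair of arrays on slide 1, 2 or 3. *Cd8a* and *Cd8b1* are at or above 0.86 on all 3 slides, and *Cd4* is at or below 0.21.

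Against sham only slide 1 allowed a comparison within a slide. There OB 1 lay above the mean of sham 1 and sham 2 by 2.28 for *Cd3d*, 2.07 for *Cd3e*, 2.74 for *Cd3g*, 2.99 for *Cd8a*, 2.24 for *Cd8b1*, 0.93 for *Cd4*, 1.98 for *Lck* and 2.06 for *Zap70*. With the slide as a fixed block none of the 9 genes was called in any comparison, and of all probes 4 were called higher in OB against sham and 0 in non-OB against sham. For 7 of the 9 the log2 change in OB under that block was larger than without it, and so was its error, with 2.39 (SE 0.45) for *Cd3d*, 2.16 (SE 0.34) for *Cd3e*, 3.20 (SE 0.53) for *Cd8a* and 2.19 (SE 0.37) for *Zap70*. That of *Cd4* was smaller, at 0.92 (SE 0.19). As a random block the slide left 8 genes called in OB and 6 in non-OB.

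Beyond the 9 genes, a list of 29 genes of TCR signalling and the T-cell surface was taken as a whole. In OB against sham 18 of the 29 were upregulated, beside 2.72% of all probes, and none was called lower, beside 2.43%. Their median log2 change was 1.63. In non-OB against sham 14 were upregulated, beside 1.81% of all probes, and none was called lower, beside 0.710%. The median there was 1.40. None was called between OB and non-OB, where the median was 0.20. The largest called changes in OB were at *Ubash3a*, a regulator that dampens TCR signals (2.98, SE 0.28), the surface receptors *Cd6* (2.78, SE 0.30) and *Cd5* (2.72, SE 0.38), the adaptor *Lat* (2.55, SE 0.40), which Zap70 phosphorylates, and *Themis* (2.47, SE 0.31), needed for T-cell development. All 5 were also called in non-OB, with log2 changes of 2.49, 2.30, 2.27, 2.18 and 1.79.

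The 5 smallest changes of the list in OB were at the following genes. *Nfatc1*, a transcription factor switched on by calcium, changed by -0.02 (SE 0.17), *Bcl10*, an adaptor of NF-kappaB signalling, by 0.12 (SE 0.16), and *Plcg1*, a phospholipase, by -0.18 (SE 0.31). *Txk*, a kinase of the Tec family, was at 0.24 (SE 0.32) and *Fyn*, a Src family kinase like Lck, at 0.44 (SE 0.19), and none of these 5 passed the test. The genes of the TCR chains' constant regions had no matched probe and were not analysed here.

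**Figure D5:**
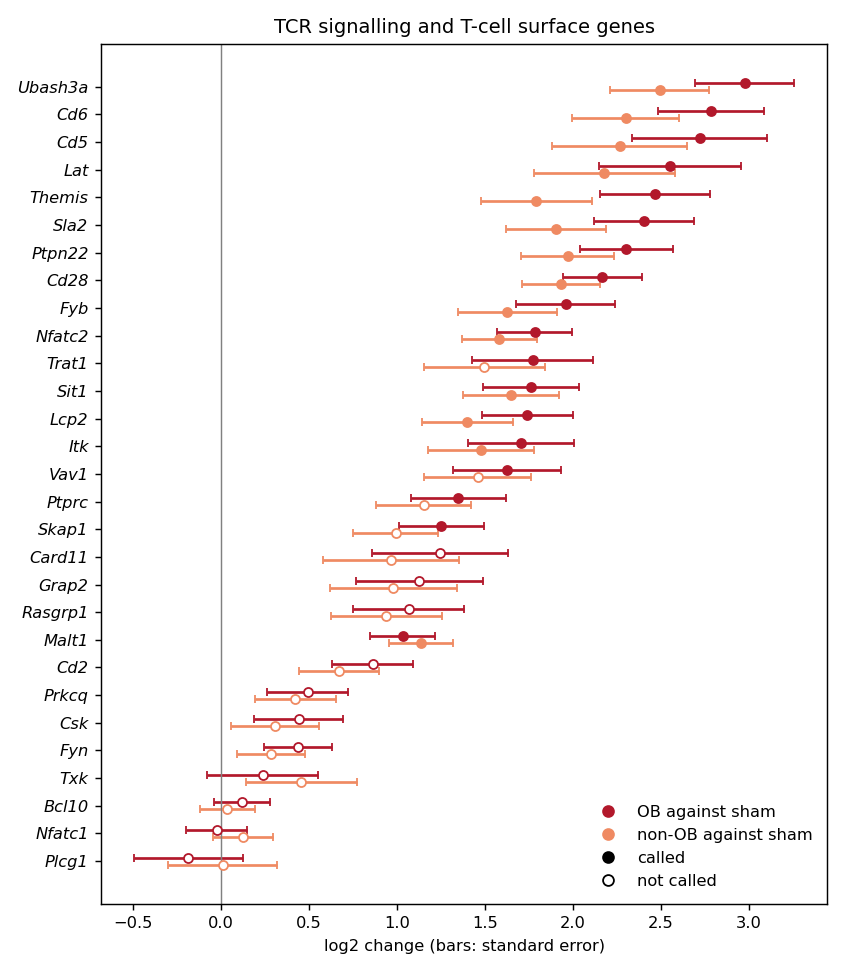
Log2 change (horizontal axis, bars ± SE from limma) of the 29 genes of TCR signalling and the T-cell surface, brightest probe, for OB against sham (red) and non-OB against sham (orange), ordered by the former and filled where called. The values run from -0.18 at *Plcg1* to 2.98 at *Ubash3a* in OB, with 18 filled points in OB and 14 in non-OB.

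Genes linked to the lineages that carry each coreceptor were counted too. Beside their counts, 2.72% of all probes were called higher in OB and 1.81% in non-OB. Of 12 helper and regulatory T-cell genes 5 were upregulated in OB and the same number in non-OB: *Foxp3*, the factor of regulatory T cells, *Il2ra*, *Ctla4*, *Icos* and *Tnfrsf4*, all of them surface receptors except the first. *Foxp3* rose by 3.23 (SE 0.23) in OB and 2.98 (SE 0.23) in non-OB, and *Ctla4*, well above background in none of the sham lungs, was at least 9.38-fold higher in OB and 7.33-fold or more in non-OB. Their log2 differences between OB and non-OB lay between 0.09 and 0.36. *Zbtb7b*, the factor that sets helper T-cell fate, changed by 0.09 (SE 0.20) in OB and was not called. *Bcl6* (-0.67, SE 0.22) and *Gata3* (-0.22, SE 0.20) were not called either. Every OB array lay below every sham array for both, but for *Gata3* the nearest arrays, OB 3 and sham 2, read 11.731 and 11.734. Nor was *Cd40lg* called (-0.68, SE 1.02), whose signal passed background on 1 of the 9 arrays, sham 2. The median log2 change of the 12 was 0.65 in OB. The summed intensity of the 12 genes lay between 18297 and 20812 in OB, 17196 and 22817 in non-OB and 13353 and 16062 in sham.

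Of 13 genes listed for cytotoxic T cells, not all of them specific to these cells, 8 were upregulated in OB and 3 in non-OB (*Runx3*, *Klrd1* and *Itgae*). The shares of all probes called higher were 2.72% and 1.81%. *Klrc1*, counted among the 13, was well above background on no array. *Nkg7*, a protein of cytotoxic granules, read 13.70, 13.23 and 13.77 in OB, 12.96, 12.32 and 12.52 in non-OB and 11.15, 11.63 and 11.70 in sham, with all 3 groups apart. *Nkg7*, *Crtam*, *Tbx21*, *Ccl5* and the granzyme *Gzmk* (log2 change 5.43, SE 0.96, with 1 of 3 sham arrays well above background) were called in OB and did not pass in non-OB, where their log2 changes ran from 0.88 to 3.50. None of the 13 was called between OB and non-OB. There the log2 differences of these genes ran from 0.32 (SE 0.26) for *Tbx21* to 1.93 (SE 0.96) for *Gzmk*. *Gzma*, another granzyme, fell in both graft groups, with log2 changes of -1.47 (SE 0.21) in OB and -1.10 (SE 0.21) in non-OB. *Gzmb* and *Prf1*, which kill target cells, changed by -0.38 (SE 0.26) and 0.03 (SE 0.24) in OB and were not called. The summed intensity of the 13 genes lay between 64640 and 89798 in OB, 39983 and 59857 in non-OB and 29909 and 36740 in sham. *Ccl5* made up most of that sum in OB, and without it the ranges were 22148 to 28256, 16612 to 21515 and 16566 to 21913, so that non-OB no longer stood apart from sham.

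Some markers of other cells rose with the T-cell genes and others did not, and their part in these results was not tested. Their counts of upregulated genes stand beside 2.72% of all probes in OB and 1.81% in non-OB. Of 10 macrophage genes 5 were upregulated in OB and 4 in non-OB, with a summed intensity between 80973 and 89948 in OB, 53400 and 75079 in non-OB and 27517 and 35071 in sham. The macrophage genes called in OB were *C1qa* (3.30, SE 0.26), *C1qb* (3.38, SE 0.26), *Fcgr1*, *Cd68* and *Adgre1*. *Siglecf* went the other way and was not called, at -0.12 (SE 0.42) in OB and -0.87 (SE 0.42) in non-OB. Every non-OB array lay below every sham array for it. Of 7 genes of type 2 conventional and plasmacytoid dendritic cells, which can carry CD4 in mice, 3 were upregulated in both graft groups, *Mgl2*, *Clec10a* and *Ccr9*. *Tcf4* of that list went the other way, with every graft below every sham lung. Its log2 change was -0.55 (SE 0.25) in OB and -0.38 (SE 0.25) in non-OB, and it was not called. All 5 proliferation genes (*Mki67*, *Top2a*, *Cdk1*, *Ccnb1* and *Birc5*) were upregulated in both graft groups, with a median log2 change of 2.66 in OB and 2.52 in non-OB. None of 8 B-cell genes was called, with a median log2 change of -0.10 in OB. Of 8 genes of the lung itself none was called higher and 2 were called lower in both graft groups. Of all probes, 2.43% were called lower in OB and 0.710% in non-OB. *Hopx* fell by 1.82 and the endothelial cadherin *Cdh5* by 1.48 on the log2 scale in OB. Uncalled in OB were *Scgb1a1* (-1.73, SE 0.96), *Pecam1* (-0.92, SE 0.25), *Ager* (-0.73, SE 0.18) and *Cldn18* (-0.53, SE 0.17). So were *Sftpc* (0.14, SE 0.19) and *Sftpb* (0.29, SE 0.31).

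The genes whose profile over the 9 arrays was closest to that of the CD3 genes were ranked by the root mean square of the log2 difference after each profile was centred, among 15920 genes. Closest to the mean of *Cd3d*, *Cd3e* and *Cd3g* were *Insl6* (0.146), *Ikzf3* (0.153), *Lpxn* (0.155) and *Cd28* (0.163), followed by *Phf11b*, *Bcl2a1d*, *Themis*, *Nccrp1*, *Dusp2* and *Fcgr1* (0.207). Among the other genes described here *Zap70* lay at 0.183, *Lck* at 0.315, *Cd8a* at 0.441, *Cd8b1* at 0.451, *Cd4* at 0.653 and *Cd247* at 1.25. Closest to the mean of the CD8 genes were *Gimap7* (0.255), *Ccl4* (0.298), *Nkg7* (0.300), *Themis* (0.308) and *Crtam* (0.319). Closest to *Cd4* were *B2m*, which encodes the light chain of MHC class I (0.166), *Pax3* (0.177), *Usp18* (0.181), *Lap3* (0.205) and *Lin9* (0.212). Only 9 arrays lie behind each distance.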

How the data were processed

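Gene expression was measured on 9 Agilent 1-colour mouse arrays. The authors extracted background-subtracted and spatially detrended signals with Agilent Feature Extraction 12.0.3.1, and the intensity of each spot was deposited. The authors also deposited a value table scaled to a trimmed mean of 2500. Here the deposited intensity was scaled in the same way (2% trimmed at each end), which equalled the value table within a relative difference of 5e-10, and its log2 was taken. The array factors lay between 1.24 and 2.05. Control spots (3671) and outlier spots (53 to 111 on an array) were left out and repeated spots averaged. Groups came from the sample labels.

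Gene names were found by matching each probe's accession to RefSeq (GRCm38.p6) and, for 1 *Cd4* probe, came from a table of the study. Probe coordinates are not given, because the array's design used a different build. The 9 genes and all gene lists were chosen with earlier results of these data known. Named genes are all 9 with every probe, the 5 largest called and the 5 smallest changes of the signalling list in OB against sham, called genes of the other lists, and the nearest profiles; *Zbtb7b*, *Gzmb*, *Prf1*, *Nfatc1* and other uncalled genes are given by value. Genes were compared for likeness if well above background on at least 6 arrays. Promoter windows of 250 bases came from RefSeq.

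The test was limma 3.58.1 (lmFit and eBayes, R 4.3.3) with 1 mean per group on all 9 arrays, and with 2 means for the 6 allografts against the 3 sham lungs. Exact permutation tests were run in scipy 1.17.1, beside Python 3.11.15, numpy 2.4.6 and pandas 2.3.3, and statmod 1.5.0 served the random block. Where no array of the dimmer group was well above background, a fold is a bound: on each such array the dimmer side is the probe's own signal or, if higher, the weakest signal that was well above background there. The code was tested on simulated data. Alternatives were other scalings, background correction, filters, spread models, blocks, probes, leaving out single arrays and the methods' t-test. With 3 arrays per group, their number limits the precision. The arrays with the same replicate number did not vary together, so the fit had no pairs. Arrays of different groups on the same slide correlated positively, at 0.08 to 0.56 in their deviations from the group means. The main fit had no term for the slide, which was used as a block among the alternatives.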

Additional observations from a re-analysis of the deposited data

Results flagged for a closer look

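In *Zap70*, non-OB 2 stood apart from the other grafts. At 11.82 it was the lowest of the 6 allografts, and its gap to the next array was 0.642 of their whole range. Of 11 values tested over the 6 allografts (the 9 genes and the CD8 minus *Cd4* differences) this was the 1 with such an array, and chance marks about 1 in 20 groups.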

How the results depend on the processing

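Of 25 alternatives, those that lowered the counts of upregulated genes most were the slide as a fixed block, sham 1 as the only control, the adjusted t-test of the methods and single arrays. With the slide as a fixed block 0 genes were called in OB, in non-OB and in the allografts against sham, although the changes themselves stayed as large for most. As a random block it left 8, 6 and 6 genes called. Against sham 1 alone, taken to vary as the other groups do, 2 genes were called in OB, 0 in non-OB and 4 in the allografts. After Benjamini-Hochberg adjustment the methods' t-test called 3 in OB and 0 in non-OB, and without adjustment it called 2 in OB against non-OB, *Cd8a* and *Cd8b1*. In non-OB 1 gene was called with the compared groups fitted alone. With 1 array left out the count was 5 (without OB 3) to 7 in OB, 0 (without non-OB 1) to 4 in non-OB and 4 (without sham 2) to 7 in the allografts. In non-OB it was 1 without sham 2 or sham 3, and 2 without non-OB 3 or sham 1. The calls over all probes, 1539 higher in OB and 1027 in non-OB in the main fit, also changed with the setting. Against sham they were more with the random block and the unadjusted t-test in both graft groups. They were fewer with the fixed block, the adjusted t-test and any array left out. The gene counts therefore do not have the same background in each setting. For the unadjusted t-test in OB against non-OB no share of all probes is given here.

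The replicate number of the labels does not pair the mice: arrays with the same number correlated between -0.45 and 0.44 in their deviations from the group means. With it as a replicate block 7 genes were called in OB, 2 in non-OB and 7 in the allografts.

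*Cd247* by its brightest probe changed sign. Its log2 change in OB against sham was 0.049 with quantile normalization, 0.061 with normexp, 0.21 with the slide as a fixed block, 0.15 as a random block and 0.93 with its probes averaged. In non-OB against sham it was 0.10, 0.042 and 0.76 with the last 3 of these, and in the allografts 0.0070 with normexp, 0.15, 0.10 and 0.85. With 1 array left out it ran from -0.61 to 0.21 in OB, -0.71 to 0.16 in non-OB, -0.33 to 0.48 in OB against non-OB and -0.66 to 0.15 in the allografts.

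The excess of the CD8 genes over *Cd4* in OB against non-OB kept its sign under 17 alternatives. Against sham it depended on sham 1 and on the *Cd4* probe, the latter chosen after seeing the data. With sham 1 alone it was 3.18, 2.00 and 2.59 for *Cd8a* and 1.98, 0.95 and 1.47 for *Cd8b1* in OB, non-OB and the allografts. The *Cd4* probe of the study's table gave no value against sham, where it was not well above background, and in the allografts the excess was at most 0.34 for *Cd8a* and -0.65 for *Cd8b1*. For *Cd8b1* it was also -0.25 in the allografts with the dimmer *Cd4* probe and 0.38 in non-OB with the slide block, and without 1 array it ran from -0.67 to 0.26 in non-OB and from -0.16 to 0.78 in the allografts. The cause of these shifts was not tested. Quantile normalization moved the median log2 change of all probes in non-OB against sham from 0.13 to -0.02. The *Cd4* call in OB was lost in 15 of 25 alternatives, that of *Lck* in 7 and that of *Cd8b1* in 4.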
